A study of Mus musculus with 12 samples.

Results

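A set of 4 chromosomal loci was examined in cultured macrophages: those of the transcription factor genes Cebpa, Bach2 and Rarg, and that of Psd, a gene that ends tail to tail against the transcription factor gene Nfkb2. The 6 listed genes were Cebpa, Gm45091, Bach2, Bach2os, Rarg and Psd. They were chosen by the change of their count rows between M1 and M0 cells in earlier results of these data. Stimulation is therefore described for the members without a test. Of the 6 genes, 5 had a row among the 24552 rows of the table, and all 5 rows passed the low-count filter that left 2333 rows for testing. Gm45091 had no row under that symbol and received no value. Nfkb2 was followed beside Psd although it is not a member.

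The cells were macrophages grown from the bone marrow of Gpr31b knockout (KO) mice and of wild-type (WT) mice. They were either stimulated with LPS and IFN-γ (M1, the classical proinflammatory state) or left unstimulated (M0), so that there were 3 libraries in each of 4 groups: KO M1, WT M1, KO M0 and WT M0. Gpr31b is the mouse gene of the G protein-coupled receptor GPR31. The labels used here give no deleted part of Gpr31b. No label says that the libraries came from separate animals, and a p-value therefore reflects only how far these libraries varied, which may be technical. Library totals ran from 372878 to 585465 counts, and Pearson's r between replicates, taken over rows as log2 CPM, was 0.924 to 0.958. The Gpr31b row itself summed to 0 counts in KO M1, 6 in WT M1, 0 in KO M0 and 0 in WT M0, too few to check the genotypes.

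C/EBPα, the product of Cebpa, is a basic leucine zipper factor that directs progenitors into the granulocyte and macrophage lineages. BACH2 is a basic leucine zipper repressor best known from B and T lymphocytes, where it pairs with small MAF proteins and restrains effector differentiation. RARγ, the product of Rarg, is a nuclear receptor that binds retinoic acid and acts as a partner of the RXR receptors. NFKB2 is the precursor of a subunit of the non-canonical NF-κB pathway, and its gene is itself a known NF-κB target. PSD is no transcription factor: it is a guanine nucleotide exchange factor for the small GTPase ARF6, described mainly in brain. Gm45091 and Bach2os are annotated as antisense non-coding genes. By product, 3 of the 6 genes are transcription factor genes.

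Most of these rows share exon sequence with a gene on the opposite strand. Libraries were made with a strand-specific kit, but the strand setting used for counting is not known from the labels. Over the whole table, rows with an opposite-strand exon made up 23.2% of the matched rows and held 90.9% of their counts. Values below therefore belong to rows, and where 2 genes overlap the table does not show which of them gave the reads. Rows without such an overlap, that of Rarg among them, were counted under the same unknown setting.

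Positions are those of GRCm38, the assembly that mm10 also names, in the GENCODE M21 annotation. Cebpa (ENSMUSG00000034957.10) is a single exon on the plus strand of chromosome 7, from 35119293 to 35121928. Gm45091 (ENSMUSG00000108624.1) runs against it on the minus strand from 35118044 to 35119605, so the start of Cebpa lies inside the Gm45091 intron. Their exons share 51 bases, from 35119555 to 35119605, which are coding sequence of Cebpa and make up 1.93% of its exon bases. Bach2 (ENSMUSG00000040270.16) spans 347305 bases on the plus strand of chromosome 4, from 32238804 to 32586108. Bach2os (ENSMUSG00000086150.1) lies wholly within it on the minus strand, from 32559680 to 32571708. The exons of the Bach2 pair share 537 bases of Bach2 coding sequence in 2 stretches, which is 5.4% of the exon bases of Bach2 and 24.6% of those of Bach2os. The shared stretch at Cebpa and the shorter of both at Bach2 are shown on the plus strand, since reads from these bases could belong to either gene of a pair:
Cebpa and Gm45091, chr7:35119555-35119605: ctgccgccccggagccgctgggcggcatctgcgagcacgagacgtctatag
Bach2 and Bach2os, chr4:32561778-32562009: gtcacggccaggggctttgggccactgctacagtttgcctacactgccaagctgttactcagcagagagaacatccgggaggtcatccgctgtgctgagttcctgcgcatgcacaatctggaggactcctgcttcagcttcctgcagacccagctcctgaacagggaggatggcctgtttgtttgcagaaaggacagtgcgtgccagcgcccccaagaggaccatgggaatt

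Rarg (ENSMUSG00000001288.15) lies on the minus strand of chromosome 15, from 102234938 to 102257517. It is the 1 member with no opposite-strand exon overlap of 20 bases or more, and no opposite-strand gene end within 5000 bases. Psd (ENSMUSG00000037126.16) lies on the minus strand of chromosome 19, from 46312087 to 46327156, and Nfkb2 (ENSMUSG00000025225.15) on the plus strand from 46304320 to 46312385. The last 299 bases of both genes coincide, from 46312087 to 46312385, and are 3′ UTR in each. These bases are 3.92% of the Psd exon bases and 6.52% of those of Nfkb2. At its other end Nfkb2 shares 531 exon bases with the non-coding gene AC114539.1 on the opposite strand. They are 11.6% of the Nfkb2 exon bases.

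**Figure D1:**
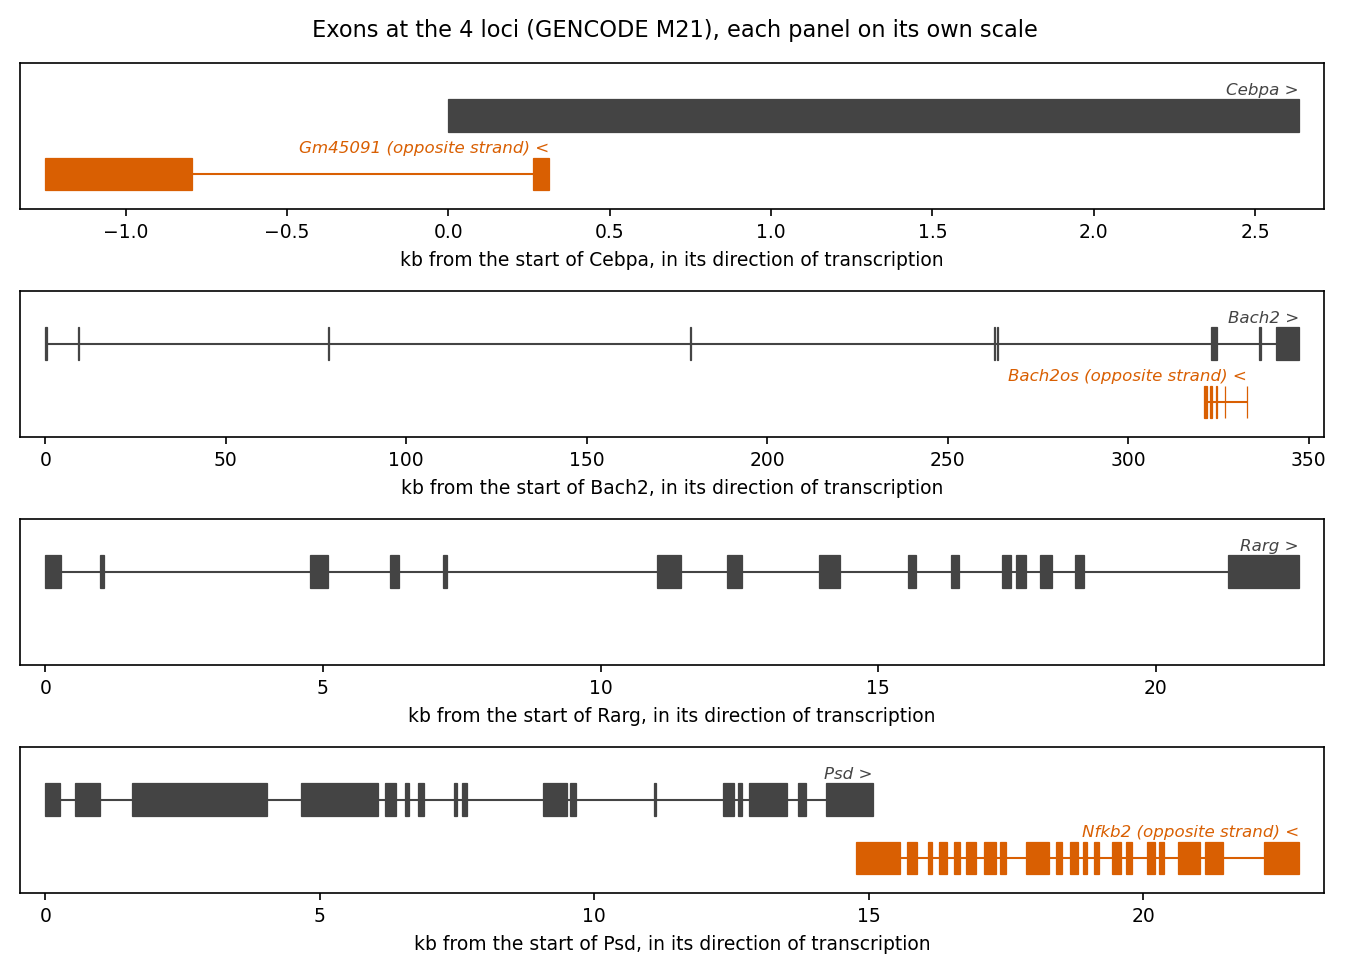
Exons (boxes) and gene spans (lines) at the 4 loci, plotted in kb from the start of the named member in its direction of transcription, with genes on its own strand above and opposite-strand genes below, each panel on its own scale. Gm45091 covers the start of Cebpa, Bach2os sits inside Bach2, Nfkb2 and Psd share 299 bases at their 3′ ends, and Rarg has no opposite partner. AC114539.1, which also overlaps Nfkb2, is not drawn.

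Promoter windows of 300 bases are shown for Rarg, a rising member, and for Nfkb2, the gene opposite the rising member Psd and a known NF-κB target, from RefSeq on GRCm38.p6. Of the 6 members, 5 had a window in that table. Each spans an annotated start, on the strand of the gene. Capitals mark matches, on either strand, to 5 motifs: the NF-κB motif (GGGA and TTCC with any 2 bases between them), the STAT motif TTCNNNGAA, the interferon response core (GAAA and GAAA with any 2 bases between them), the C/EBP motif TTGCNNAA and the retinoic acid receptor element AGGTCA. Of the 2 Rarg windows, that of the upstream start holds 1 receptor element and 1 interferon response core, which overlap no other match:
Rarg, chr15:102257473-102257772, minus strand: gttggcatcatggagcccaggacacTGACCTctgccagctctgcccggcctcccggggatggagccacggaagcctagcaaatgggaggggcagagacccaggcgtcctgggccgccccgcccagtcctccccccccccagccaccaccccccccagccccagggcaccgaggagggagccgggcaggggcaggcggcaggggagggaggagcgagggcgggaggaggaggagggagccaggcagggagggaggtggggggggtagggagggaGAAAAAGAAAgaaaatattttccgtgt
The window of 1 of the 3 Nfkb2 starts holds the NF-κB motif at 2 places, the second of which lies also in the window of another start:
Nfkb2, chr19:46305445-46305744, plus strand: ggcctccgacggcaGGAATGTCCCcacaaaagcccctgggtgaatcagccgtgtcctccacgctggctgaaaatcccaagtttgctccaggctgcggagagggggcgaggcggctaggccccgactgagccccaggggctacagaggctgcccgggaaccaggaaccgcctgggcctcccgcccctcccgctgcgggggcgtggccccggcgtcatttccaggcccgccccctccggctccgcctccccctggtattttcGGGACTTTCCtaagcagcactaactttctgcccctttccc
Among 32851 windows of 300 bases, 1.47% held the NF-κB motif, 8.3% the STAT motif, 3.44% the interferon response core, 10.8% the C/EBP motif and 16.3% the receptor element. The single window of Cebpa held none of the 5, and that of Bach2 held 1 STAT motif. The Bach2 window, chr4:32417185-32417484, lies at an exon that begins 178631 bases into the gene. The upstream end of Bach2, at 32238804, had no window and was not searched. The other Rarg window held 1 C/EBP motif and none of the rest. Of the 2 Psd windows, 1 held a receptor element and 1 a STAT motif, and neither held the NF-κB motif. The Bach2os window held 1 receptor element. A match is a run of letters and not a measured site.

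The Cebpa row was nearly empty in stimulated cells. Levels are given as CPM, counts divided by the library total after TMM scaling, which corrects for composition. The row had 2.97, 5.27 and 5.05 CPM in the KO M1 libraries, against 92.1, 67.5 and 75.3 CPM in KO M0. In wild type it was at 0 in all 3 WT M1 libraries, against 117, 81 and 80.6 CPM in WT M0. No M1 library came near an M0 library in either genotype. With 5 counts in KO M1 against 118 in KO M0, the level was 17.4-fold lower in M1, with an exact 95% counting interval of 7.27 to 54.7. Set against a limit of 3 counts over the group, the WT M1 level was at least 35.4-fold lower than the WT M0 level. In these bulk libraries, fewer cells with a transcript and less transcript per cell cannot be told apart.

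Bach2 and its antisense partner fell side by side. The Bach2 row was at 0 in all 3 KO M1 libraries, against 104, 53.6 and 116 CPM in KO M0, at least 33.8-fold lower. In WT M1 it had 2.01, 0 and 0 CPM, from a single count, against 128, 29.8 and 78.7 CPM in WT M0. The ratio of the WT groups was 92.5-fold lower in M1, with a counting interval of 16.3 to 3682, and it rests on that 1 count, which is under the limit of 3. Without WT M1 replicate 1, which holds the count, the log2 ratio was -4.12 against the limit, compared with -6.53. The highest WT M0 library stood 4.28 times above the lowest, the widest spread among the M0 groups of the falling rows.

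The Bach2os row had 0, 2.63 and 0 CPM in KO M1, against 66.7, 57.5 and 63.1 CPM in KO M0. In WT M1 it had 0, 0 and 6.65 CPM, against 57.7, 42.6 and 52.5 CPM in WT M0. Both M0 groups were tighter here than for Bach2, with the highest library 1.16 times the lowest in KO M0 and 1.35 times in WT M0. The ratio was 69.5-fold lower in M1 in KO, with an interval of 12.2 to 2773 on 1 count in M1, and 29-fold lower in WT, with an interval of 7.79 to 243.9 on 2 counts. Both rest on fewer counts than the limit of 3. Without KO M1 replicate 2, which holds the KO count, the log2 ratio in KO was -3.93 against the limit, compared with -6.12. Without WT M1 replicate 3, which holds both WT counts, that in WT was -3.81, compared with -4.86. Per kb of annotated exon the Bach2os row was the higher of the pair in M0, at 28.6 against 9.17 CPM per kb in KO M0 and 23.3 against 7.92 CPM per kb in WT M0. How much of either row came from the 537 shared bases cannot be read from the table, so these values do not rank the 2 genes.

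The Rarg row behaved as the mirror image of these rows. It had 143, 76.4 and 164 CPM in KO M1 and 102, 72.5 and 140 CPM in WT M1, and it was at 0 in all 6 M0 libraries. A group at 0 allows up to 1.99 CPM in KO M0 and 1.91 CPM in WT M0, for counting error only. Against that limit the M1 level was at least 64-fold higher in KO and at least 54.4-fold higher in WT. The lowest M1 library in each genotype was replicate 2, and the highest was about as far above it in KO (2.15 times) as in WT (1.93 times).

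The Psd row was far fuller than the others and rose by a smaller factor. It had 4918, 4039 and 4857 CPM in KO M1, against 931, 1292 and 1551 CPM in KO M0, a ratio of 3.67. In WT M1 it had 5352, 4479 and 6334 CPM, against 1044, 972 and 901 CPM in WT M0, a ratio of 5.5. In both genotypes every M1 library lay above every M0 library. Across the groups the mean was highest in WT M1 (5388 ± 928 CPM), followed by KO M1 (4604 ± 491), KO M0 (1258 ± 311) and WT M0 (972 ± 71.5; SD, n = 3 each). The first 2 of these groups overlapped, as did the last 2.

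Nfkb2, whose 3′ end coincides with that of Psd, had a row that also rose, though far fewer counts fell in it. It had 321, 298 and 267 CPM in KO M1, against 137, 119 and 197 CPM in KO M0, and 273, 257 and 233 CPM in WT M1, against 117, 113 and 152 CPM in WT M0. The M1 level was 1.95 times the M0 level in KO, with a counting interval of 1.64 to 2.32, and 2.02 times in WT, with an interval of 1.68 to 2.43. By edgeR's quasi-likelihood test the adjusted p was 0.000237 in KO and 0.000181 in WT, a contrast that the choice of Psd also used. On library size alone the log2 fold change was 0.49 in KO and 0.50 in WT, against 0.96 in KO with TMM, and Nfkb2 was still called. Per kb of annotated exon the Psd row stood at 603 CPM in KO M1 and 706 CPM in WT M1, where the Nfkb2 row stood at 64.4 CPM and 55.5 CPM. Which share of either row came from the 299 shared bases cannot be read from the table. The same holds for the Nfkb2 row and the 531 bases shared with AC114539.1.

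**Figure D2:**
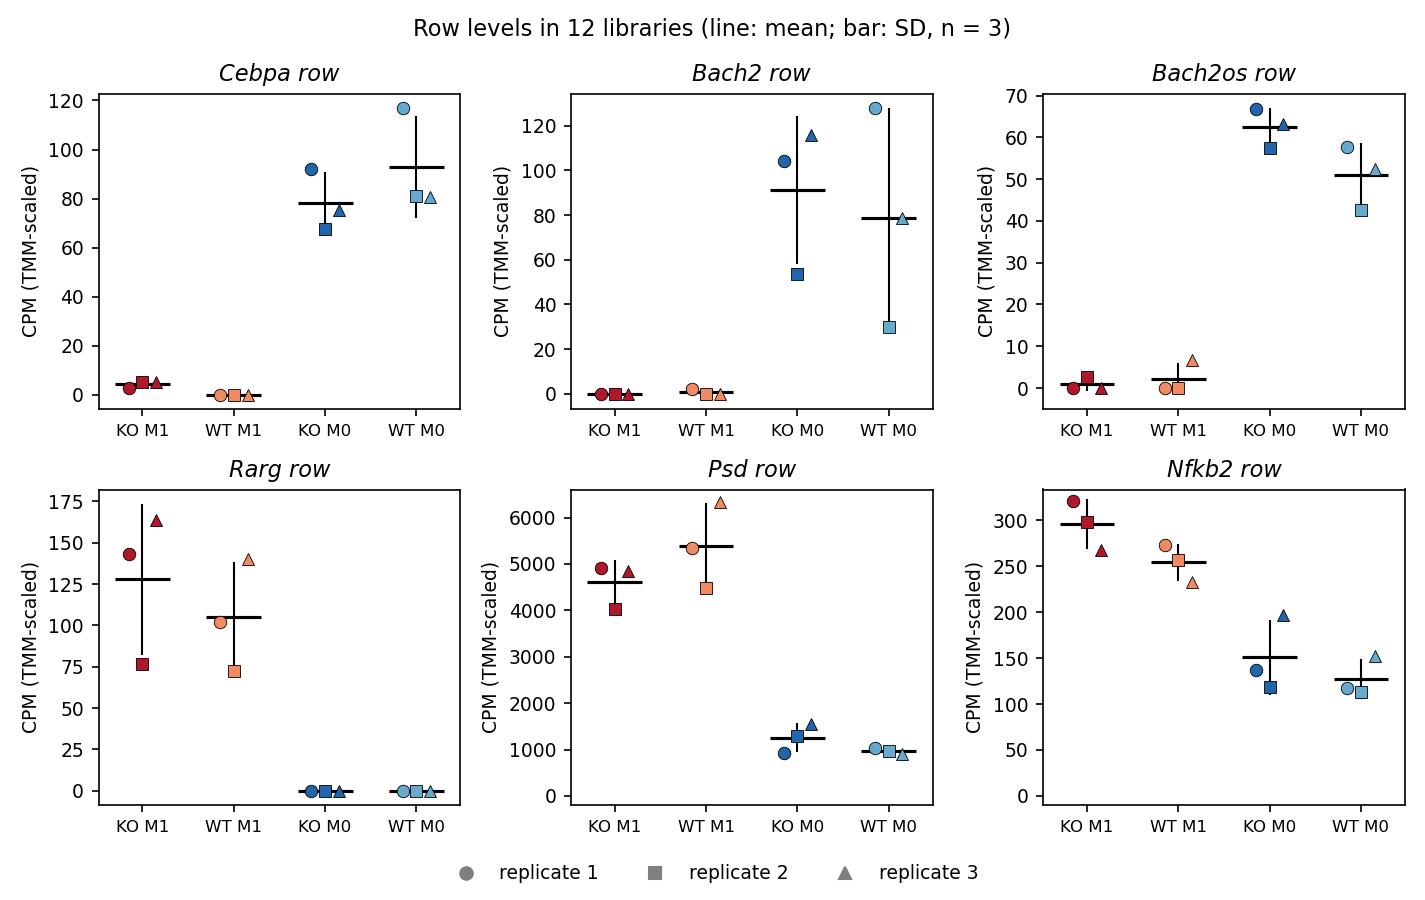
Level of the 5 member rows and of Nfkb2 in each of the 12 libraries (y axis, TMM-scaled CPM on a linear scale starting at or below 0), by group; symbols give the replicate number, the line the mean and the bar the SD over 3 libraries. Cebpa, Bach2 and Bach2os sit near 0 in M1, at most 6.65 CPM, Rarg is at 0 in M0, and the Psd row is at 4039 CPM or more in every M1 library.

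Stimulation calls were common over the whole table, so that a call by itself sets no row apart. By edgeR at an adjusted p under 0.05, 47.6% of all tested rows were called in KO and 48.8% in WT. Of all tested rows, 22.4% were lower and 25.2% higher in KO M1 than in KO M0, and 23.1% were lower and 25.7% higher in WT M1 than in WT M0. Rows whose 3 M1 libraries all lay above the 3 M0 libraries made up 28.3% in KO and 28.2% in WT, and rows with all below, 26.9% in KO and 27.9% in WT. All 3 falling rows were among the lower and both rising rows among the higher rows in each genotype, as the choice of members fixed.

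Small counts carry an extra caution. Of the 48312 counts from 1 to 12 in the table, 60.9% were even, and a count of 2 (14802 times) was commoner than a count of 1 (9131 times). If single reads were not counted independently, the limits and intervals above are too narrow; this was not tested.

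The genotype comparisons asked whether the loss of Gpr31b changed these loci, a contrast that did not choose them. In unstimulated cells the Cebpa row averaged 78.3 ± 12.6 CPM in KO M0 and 92.9 ± 21 CPM in WT M0 (SD, n = 3 each). The log2 fold change was -0.25 (95% interval -1.02 to 0.52, edgeR adjusted p = 1). For Bach2 the means were 91.2 ± 33.1 CPM in KO M0 and 78.7 ± 48.9 CPM in WT M0, and the log2 fold change was 0.20 (-0.72 to 1.11, edgeR adjusted p = 1). That direction rested on single libraries: the value was -0.23 without WT M0 replicate 2 and -0.06 without KO M0 replicate 3. Bach2os averaged 62.4 ± 4.59 CPM in KO M0 and 50.9 ± 7.66 CPM in WT M0, with a log2 fold change of 0.29 (-0.73 to 1.31, edgeR adjusted p = 1). Each of these intervals spans 0.

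Psd had the narrowest interval in M0. Its log2 fold change was 0.37 (0.06 to 0.69), with an unadjusted p of 0.0233 and an adjusted p of 0.689 by edgeR. In KO M0, 2 of the 3 libraries lay above all WT M0 libraries, and replicate 1 lay below 2 of them. Of the 4 member rows with counts in M0, edgeR called 0, where 0.0429% of all tested rows were called. No member row had groups apart in M0, where 6.52% of all tested rows lay apart with KO higher and 5.4% with KO lower. DESeq2 and limma-voom also called 0 of them. Psd was the 1 row under an unadjusted p of 0.05, which 6.47% of all tested rows were.

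In stimulated cells Rarg averaged 128 ± 45.7 CPM in KO M1 and 105 ± 33.7 CPM in WT M1 (SD, n = 3 each). Its log2 fold change was 0.29, with a 95% interval of -0.53 to 1.10 (edgeR adjusted p = 0.95). Psd changed sign against M0, at -0.23 (-0.53 to 0.08, edgeR adjusted p = 0.851). The Bach2 row held 0 counts in KO M1 and 1 in WT M1, and the Bach2os row 1 in KO M1 and 2 in WT M1, too few for a fold (edgeR adjusted p = 0.893 and 0.974). The Cebpa row held 1, 2 and 2 counts in the KO M1 libraries and 0 in each WT M1 library, so that the groups did not overlap, a pattern that 5.96% of all tested rows showed in this direction and 4.84% in the other. Its 5 counts against a limit of 3 gave a ratio of 1.69, which leaves out the counting error of the 5 counts and is no lower bound. The unadjusted p was 0.0104 and the adjusted p 0.525 by edgeR. Of the 5 member rows edgeR called 0 in M1, as it did of all tested rows (0%), and DESeq2 and limma-voom called 0 as well. Cebpa was the 1 row under an unadjusted p of 0.05, which 7.03% of all tested rows were.

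The interaction asked whether stimulation changed a row differently in KO than in WT cells. For Psd the estimate was a smaller response in KO (log2 interaction -0.60, standard error 0.21, 95% interval -1.04 to -0.16), with an unadjusted p of 0.0101 and an adjusted p of 0.627 by edgeR. Without KO M0 replicate 1 the value was -0.75 and passed, with an edgeR adjusted p of 0.0339; over all 19 alternatives the adjusted p ran from 0.0339 to 0.881, and it passed in that 1 only. The library left out there is the lowest of KO M0. For Nfkb2, at the same 3′ end, the interaction was -0.04 (-0.63 to 0.56, edgeR adjusted p = 1). Cebpa had an unadjusted p of 0.00857 and an adjusted p of 0.606 by edgeR, on 5 counts in KO M1 and 0 in WT M1. For Bach2 and Bach2os the adjusted p was 0.927 and 0.97, and Rarg, at 0 in both M0 groups, received no interaction value. Of the 4 rows with a value, edgeR, DESeq2 and limma-voom each called 0, as edgeR did of all tested rows (0%). An unadjusted p under 0.05 was found for 2 of the 4, and for 6.17% of all tested rows.

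**Figure D3:**
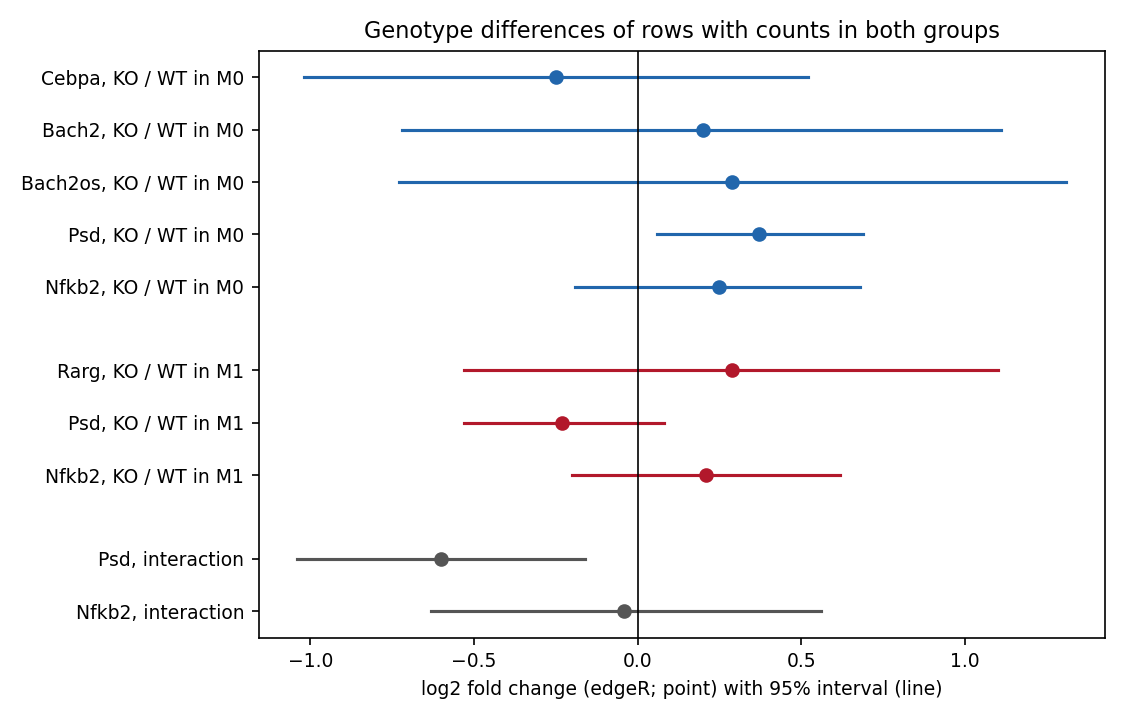
Genotype differences as log2 fold changes (x axis), KO over WT, or KO response over WT response for the interaction. Points give the edgeR estimate and lines its 95% interval. Only rows with more than 3 counts in each group compared are drawn. The intervals of Psd in M0 (0.06 to 0.69) and of its interaction (-1.04 to -0.16) lie off 0 before adjustment, and the others cross it.

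The rows whose levels ran most like each member over the 12 libraries were found by Pearson's correlation of log2 CPM, as a description. All these correlations hold the step between M0 and M1 that the members were chosen for. Closest to Cebpa were Gm10653 (opposite Cln6, r = 0.992), Phospho1 (opposite Abi3, 0.9888) and Fer1l5 (opposite Lman2l, 0.9869). Unlike Cebpa, these rows kept a clear level in M1, at 397, 62.5 and 214 CPM in the mean of the 6 M1 libraries. Bach2 ran closest to Zswim1 (opposite Spata25, 0.9864), Tubgcp4 (opposite Trp53bp1 and Zscan29, 0.9816) and Sec22c (0.9801), and of these Zswim1 and Sec22c were at 0 in M1. For Bach2os they were Chid1 (opposite Tspan4, 0.9927), Cenpo (opposite Adcy3 and Ptrhd1, 0.9901) and Pde8b (opposite Gm48420, 0.9878). Rarg ran with Trnt1 (opposite Crbn, 0.996), Tnfrsf8 (the CD30 gene, 0.9957) and Ghdc (0.9926). The Tnfrsf8 row shared with Rarg a level of 0 in M0, at 132 CPM in M1, and had no opposite-strand exon either. Psd ran with Gm16712 (0.9946), which lies opposite the cytokine subunit gene Ebi3 and Yju2, with Apobec3 (opposite Cbx7, 0.9937) and with D730005E14Rik (0.9937), whose span overlaps that of Apobec3 on the same strand.

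The lowest library of a group was in most cases replicate 2. It was lowest for Bach2 and Bach2os in KO M0 and in WT M0, for Rarg and Psd in KO M1 and in WT M1, and for Cebpa in KO M0. Replicate 3 was lowest for Cebpa and for Psd in WT M0, and replicate 1 for Psd in KO M0. Among all tested rows, replicate 2 was lowest in both M0 groups for 12% and in both M1 groups for 12.2%. The labels do not say what a replicate number stands for.

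Genes listed as relatives or pathway partners of these factors were then counted, members left out. The lists were written with earlier results of these data known, so their counts are a description only. Of 6 other genes on the C/EBP list, 5 rows were tested. In KO, 2 rose and 2 fell, with a median log2 fold change of -0.38, and in WT 1 rose and 2 fell, with a median of -0.02. The median of all tested rows was 0.01 in KO and -0.03 in WT. The shares over all tested rows were 25.2% higher and 22.4% lower in KO, and 25.7% higher and 23.1% lower in WT. Cebpb, the C/EBP factor of inflammatory macrophages, averaged 90.7 ± 34.7 CPM in KO M1 and 19.8 ± 9.8 CPM in KO M0, and 91.4 ± 28.6 CPM in WT M1 and 15.5 ± 7.82 CPM in WT M0 (SD, n = 3 each; row opposite Tmem189). Its log2 fold change was 2.17 in KO (standard error 0.47, edgeR adjusted p = 0.000271) and 2.52 in WT (standard error 0.48, edgeR adjusted p = 5.17e-05). The Cebpg row, of a C/EBP member that lacks a transactivation domain, fell, at a log2 fold change of -2.05 in KO and -2.81 in WT. Cebpz, on the list by its symbol and opposite Cebpzos, fell too, at -0.54 in KO and -1.05 in WT. On library size alone the Cebpz values were -1.02 in KO and -1.55 in WT. Cebpd was called in KO only (0.99, edgeR adjusted p = 0.0416; in WT 0.79 and 0.0964), with an interaction that did not pass (edgeR adjusted p = 0.986), and its row lies opposite Spidr. With DESeq2, limma-voom, library size alone or no filter, and without KO M1 replicate 1 or 2 or KO M0 replicate 1 or 3, only 1 C/EBP row was called higher in KO. In WT, 2 were without WT M1 replicate 2.

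Of 13 other genes listed for the BACH and small MAF axis, 5 rows were tested. The list holds partners and stress targets, but also genes such as Bach1 and Keap1 that are neither. In each genotype 4 rows rose and 0 fell, where 25.2% of all tested rows rose in KO and 25.7% in WT. As this list too was written with earlier results known, the difference from those shares is no test of the axis. The median log2 fold change was 2.08 in KO and 2.09 in WT, against 0.01 in KO and -0.03 in WT over all tested rows. On library size alone, and without KO M1 replicate 2 or KO M0 replicate 2, 2 of these rows were called higher in KO. Keap1, the sensor that holds NRF2 in check, averaged 104 ± 13.3 CPM in KO M1 and 6.63 ± 1.05 CPM in KO M0, and 81.1 ± 31 CPM in WT M1 and 4.21 ± 3.71 CPM in WT M0 (row opposite Gm16754). The row of Hmox1, the haem oxygenase gene that BACH1 represses, changed by 3.70 in KO (standard error 0.51) and by 2.09 in WT (standard error 0.45), an interaction that did not pass (edgeR adjusted p = 0.737). Txnrd1, for thioredoxin reductase, changed by 2.08 in KO and by 2.34 in WT. Its call was lost in both genotypes on library size alone and in KO without a filter. It was also lost in KO without KO M1 replicate 2, KO M0 replicate 2 or KO M0 replicate 3, and in WT without WT M1 replicate 1 or any 1 of the WT M0 libraries. Maff, for a small MAF partner, changed by 1.14 in KO and by 1.52 in WT, while Mafg did not pass (-0.33 in KO and -0.31 in WT). The Bach1 row held 4 counts in KO M1, 6 in WT M1, 8 in KO M0 and 8 in WT M0, and was not tested.

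Few retinoid genes passed the filter. Of 22 other genes 3 rows were tested, and 1 rose and 1 fell in each genotype. Their median log2 fold change was negative in both genotypes. Of all tested rows, 25.2% rose and 22.4% fell in KO, and 25.7% rose and 23.1% fell in WT. Tgm2, the transglutaminase gene that retinoic acid induces, averaged 123 ± 48.5 CPM in KO M1 and 25.9 ± 0.494 CPM in KO M0, and 130 ± 32.5 CPM in WT M1 and 33.5 ± 22.7 CPM in WT M0. The row lies opposite Rprd1b, and its log2 fold change was 2.24 in KO and 1.93 in WT (edgeR adjusted p = 4.43e-05 and 0.000158). A row called lower in KO was Rarb, at 0.878 ± 1.52 CPM in KO M1, under the limit of 3 counts, and 20.1 ± 12.7 CPM in KO M0 (edgeR adjusted p = 0.0154; row opposite Top2b). In WT the Rarb row was at -0.91 and did not pass, and its interaction did not pass (edgeR adjusted p = 0.848). Without KO M1 replicate 3, Rarb was not called in KO. The Rara row held 2 counts in KO M1, 0 in WT M1, 2 in KO M0 and 6 in WT M0, and was not tested.

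Lineage factors were mostly below the filter. Of 33 other myeloid factors 5 rows were tested, with a median of 0.12 in KO and 0.07 in WT. Over all tested rows, 25.2% rose and 22.4% fell in KO, and 25.7% rose and 23.1% fell in WT. In each genotype 1 of the 5 rose and 0 fell. The called row was Klf6, a zinc finger factor of macrophage activation, at 3.61 in KO (standard error 0.94, edgeR adjusted p = 0.00185) and 3.78 in WT (standard error 0.93, edgeR adjusted p = 0.00109). All 4 Klf6 counts in WT M0 came from replicate 3, and without that library the fitted WT value was 7.08, against a group at 0 and so no measure of size. Spi1, the gene of the master factor PU.1, changed by 0.12 in KO and by 0.99 in WT and did not pass in either. Of 20 lymphoid factors 2 rows were tested, with a median of 0.10 in KO and -0.49 in WT. The row of Foxp3, the factor of regulatory T cells, was at 665 ± 46.8 CPM in KO M1 and 1560 ± 126 CPM in KO M0, and at 616 ± 61.1 CPM in WT M1 and 1741 ± 75.2 CPM in WT M0 (edgeR adjusted p = 1.7e-10 in KO and 1.66e-12 in WT). The exons of Foxp3 overlap those of Ccdc22, Gm36995 and Ppp1r3f on the opposite strand. Of the 19 NF-κB genes only Nfkb2 passed the filter. Of the 12 other genes on the ARF6 exchange factor list, which also holds Arf6 itself, 0 did. No genotype or interaction test passed for a tested row of any of these 7 lists, by edgeR. Such calls were rare over the whole table, so this result does not set the lists apart. Of all tested rows, edgeR called 0.0429% between unstimulated KO and WT cells. Between stimulated KO and WT cells the share was 0%, as it was for a differing response.

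**Figure D4:**
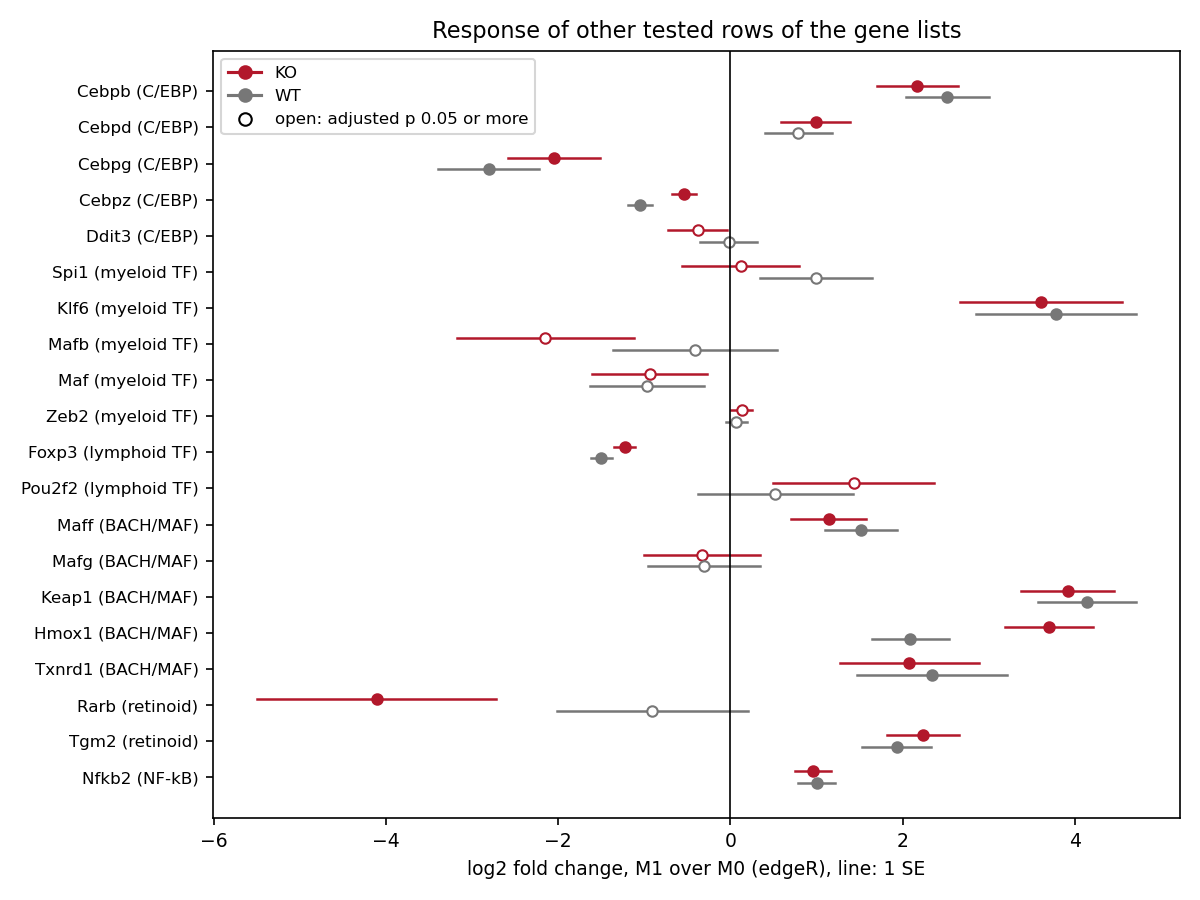
Response to LPS and IFN-γ of other tested rows of the gene lists, as log2 fold change of M1 over M0 (x axis) with a line of 1 standard error; KO in red above WT in grey, filled where the edgeR adjusted p was under 0.05. Cebpb, Klf6, Keap1, Hmox1 and Tgm2 lie to the right in both genotypes, Cebpg, Cebpz and Foxp3 to the left, and the KO value of Rarb rests on a KO M1 level of 0.878 CPM.

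Markers of cell types were read with the same limits. All 11 macrophage marker rows held counts, at a summed level of 579 to 748 CPM in KO M1, 574 to 647 in WT M1, 521 to 946 in KO M0 and 714 to 810 in WT M0. The sum covers rows that went apart: Lyz2 held 108 counts in KO M1, 82 in WT M1, 469 in KO M0 and 452 in WT M0, while Cd14 held 76 in KO M1, 75 in WT M1, 8 in KO M0 and 10 in WT M0. Of 8 B-cell markers, 2 rows held any count and the sum was at most 6.39 CPM in any library, with Ms4a1 and Pax5 at 0 throughout. T- and NK-cell markers were at 0 in every row but that of Lck, with Cd3e, Cd4 and Cd8a at 0 throughout. All 10 Lck reads fell in KO M0, where the summed level of these markers reached 20.3 CPM. Summed levels reached at most 20.3 CPM for the 9 neutrophil rows, 21.3 CPM for the 6 mast-cell and basophil rows, 17.5 CPM for the 7 erythroid and megakaryocyte rows and 13.3 CPM for the 7 fibroblast rows. The summed level of the 7 dendritic-cell rows came mostly from the Xcr1 row in M1. They summed to 492 to 716 CPM in KO M1 and 29.4 to 50.9 in KO M0, and to 551 to 655 in WT M1 and 33.7 to 47.2 in WT M0, with Flt3 and Zbtb46 at 0 throughout. The Clec9a row went the other way, with 0 counts in KO M1, 1 in WT M1, 29 in KO M0 and 17 in WT M0. The part of all these marker lists in the changes of the member rows was not tested.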

How the data were processed

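Per the labels' protocols, the libraries were TruSeq mRNA libraries that keep the strand. The authors deposited 1 table of whole-number counts per gene symbol for 12 libraries, not normalized, per the file headers. Per the submitters' processing notes, Trimmomatic, FastQC, HTSeq, DESeq2 and mm10 were used; their versions, the aligner and the strand setting are not given in the sources used here.

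All 12 libraries entered 1 edgeR 4.0.16 quasi-likelihood fit of 4 groups under R 4.3.3 (filterByExpr, TMM, robust spread), with Benjamini-Hochberg adjustment over the 2333 tested rows and a threshold of 0.05. DESeq2 1.42.0 and limma-voom (limma 3.58.1) were alternatives, beside other scalings, no filter, replicate blocks and each library left out. The fit was tested on simulated data. Folds of member rows are ratios of summed counts over summed TMM-scaled library sizes, with 3 counts put for a group at 0 and exact binomial 95% intervals, which cover counting error only. Rows were placed by symbol on GENCODE M21, where 23961 matched 1 gene.

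Members and lists were chosen with earlier results of these data known. Named rows were the members, opposite genes, the 3 most correlated rows per member, and up to 3 list rows per direction called in both genotypes; other list rows were named after their values were seen.

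Both the use of ratios for member stimulation and the use of the adjusted p in place of a fold for Cebpa, Bach2 and Bach2os in M1 and in the interaction were chosen after a first set of alternatives had shown fitted directions of near-empty rows turning; the original design named the edgeR fold for them. Some list genes are not reported here.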

Additional observations from a re-analysis of the deposited data

How the results depend on the processing

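The number of rows called for stimulation stayed within 1.5 times under all alternatives, from 1040 to 1197 in WT and from 1016 to 1188 in KO with 1 library left out. With library size alone as the scale, the median of all rows was -0.46 in KO and -0.53 in WT, and the split moved to 393 higher and 850 lower in KO (588 and 522 with TMM) and to 397 higher and 881 lower in WT (600 and 538 with TMM). On that scale the log2 ratio was -4.60 for Cebpa in KO and -5.65 in WT, -6.59 for Bach2os in KO and -5.36 in WT, 5.26 for Rarg in WT, and 1.40 for Psd in KO and 1.96 in WT, so every direction held.

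With 1 library left out, ratios against a limit moved by construction, since 3 counts then stand against a smaller total, and the largest moves came where the left-out library held all M1 counts (Bach2 in WT, Bach2os in KO and in WT). The log2 ratio ran from -5.26 to -4.32 for Cebpa in WT, -5.34 to -4.44 for Bach2 in KO and -6.91 to -4.12 in WT, -6.16 to -3.93 for Bach2os in KO and -5.00 to -3.81 in WT, and 5.12 to 5.95 for Rarg in WT. Of the printed genotype folds of the members, that of Bach2 in M0 reversed (-0.23 to 0.71), and the Psd interaction passed in 1 alternative (-0.75 to -0.38). For Nfkb2 the range was -0.03 to 0.37 in M0 and -0.17 to 0.23 for the interaction.

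Rows called for KO against WT in M0 numbered 1; 0 with library size alone, DESeq2, limma-voom or the replicate block; 4 without a filter; and 0 to 2 with 1 library left out. In M1 the number was 0, and 0 to 1 with 1 library left out. For the interaction it was 0, and 3 without a filter, 3 with the replicate block by culture and 0 to 3 with 1 library left out. Without a filter more rows were tested; other causes were not tested. Of 380 alternative values of the named list rows, 370 kept their call and direction and 10, all of Txnrd1, lost the call. These rows were named because they were called in both genotypes, so this is no independent measure of stability.

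The replicate numbers did not meet the measure used for pairing, a correlation over 0.1 in every pair. That measure pooled pairs between genotypes with pairs of M0 and M1 within a genotype. It therefore cannot decide whether M0 and M1 libraries of the same genotype were paired. Same-numbered libraries of different groups correlated at -0.02 to 0.17 in their deviations, over 0.1 in 4 of 18 pairs, other libraries at -0.12 to 0.09, and 8 of 12 libraries correlated best with their own number, a hint from the data, not from the design. With the replicate block, 1117 rows were called for stimulation in KO and 1129 in WT, and the Psd interaction was -0.58 (edgeR adjusted p = 0.452). The replicate block by culture takes the number within each genotype. With it, 1102 rows were called in KO and 1113 in WT, and the Psd interaction was -0.57 (edgeR adjusted p = 0.239). For near-empty rows the fitted fold, not printed because it is no measure there, turned direction in 1 of 18 alternatives for Bach2 in M1, 1 of 18 for Bach2os in M1 and 1 of 19 for the Bach2os interaction, and in 0 for Cebpa. After these were seen, the adjusted p was used as the result, and with so few counts it says nothing about stability. DESeq2, limma-voom, the filter and the blocks give no value for the stimulation ratios. At this depth a ratio on 1 or 2 counts is bounded by its counting interval only, and no fold is given where both groups are at or under 3 counts.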
